A study of Equus caballus with 4 samples.

Results

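Cells keep iron soluble and out of harmful reactions through a small set of proteins. Ferritin, built of heavy (FTH1) and light (FTL) chains, stores iron in a hollow shell, and the heavy chain oxidises it on entry. Iron enters on transferrin through the transferrin receptor (TFRC), is reduced in the endosome by STEAP3 and crosses the membrane through SLC11A2, while ferroportin (SLC40A1) exports it. The iron regulatory proteins ACO1 and IREB2 bind iron-responsive elements in ferritin and TFRC mRNA, so that ferritin is set largely at translation and TFRC largely at mRNA stability. Free ferrous iron reacts with hydrogen peroxide (H2O2) to form hydroxyl radicals, which is why ferritin is counted among the antioxidant proteins. In muscle, iron also supplies myoglobin and the iron-sulfur and heme proteins of the mitochondria.

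The 10 genes described here are FTH1, FTL, TFRC, SLC11A2, STEAP3, HFE, SLC40A1, ACO1, IREB2 and PCBP1. Every gene probe on the arrays whose annotated name was exactly one of these symbols was taken, which gave 15 of 43603 probes on 19 of 43803 gene spots. The cells were equine satellite cells, stem cells of skeletal muscle that form fibres when they fuse. They came from m. semitendinosus and were harvested at day 3 of differentiation. Treated cells had gamma-oryzanol (GO, a rice bran mixture of ferulic acid esters of plant sterols) at a dose of 0.125 µM over 24 h, and 3 mM H2O2 during the final 1 h. Control cells had no GO. Whether the controls also had H2O2 is not given by the labels. In the study's own description they did, and their medium held the vehicle DMSO. The study took muscle from stallions in their first year and went on with the primary line that had the best viability and fusion. The replicates, which the labels call biological, may therefore be cultures of a single line, and p-values then measure only the spread between such cultures.

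On each of the 4 arrays of 1 slide, RNA of treated cells was labelled red (Cy5) and RNA of control cells green (Cy3). Without a dye swap, dye and treatment cannot be told apart in any of these values. The log2 ratio is red over green after normalisation, and a positive value is a higher signal with GO and H2O2. Between 54.9% and 61.4% of gene spots were well above background per channel and array, and 0 were saturated. Of the 15 probes, 13 (8 genes) were well above background on all 4 arrays in at least 1 channel and were tested among 24229 probes. The probes of HFE and SLC40A1 were not. All 8 measured members of a muscle and satellite cell marker list (of 10 listed; PAX7 and CDH15 were not found by name) were above background, and 5 of 8 were higher (against 9.93% of all gene names at their brightest probe), MYOG among them (0.33 ± 0.13; SD, n = 4 arrays; limma adjusted p = 0.0212). With Agilent's processed signals MYOG, CKM and MEF2C still passed, but MYH3 and NCAM1 did not (limma adjusted p = 0.144 and 0.061). NCAM1 passed at 1 of its 3 probes. MYH3 also lost the call when a running median over signal was subtracted (limma adjusted p = 0.066). The summed intensity of the 8 muscle and satellite cell markers was 88047 to 126064 in red and 68583 to 107633 in green. Its part in the results for iron genes was not tested. The defining markers of adipocytes and endothelial cells were not tested (0 of 5 and 0 of 5 found genes above background on all arrays). Of 5 tested fibroblast markers, THY1 was higher (0.28 ± 0.14, limma adjusted p = 0.0290) and LUM lower (−0.43 ± 0.10, limma adjusted p = 0.0131). At their brightest probes COL1A2 (0.30 ± 0.30), COL3A1 (0.23 ± 0.27) and DCN (−0.10 ± 0.05) did not pass (limma adjusted p = 0.0914, 0.134 and 0.127). Of 9 tested COL1A2 probes 4 were above 0 and 5 below, and of 7 COL3A1 probes 4 and 3. When a running median over signal was subtracted, the brightest COL1A2 probe had −0.13 and that of COL3A1 0.05. The summed intensity of the 7 found fibroblast markers was 376550 to 415770 in red and 280214 to 397324 in green. Its part in the results for iron genes was not tested either. Of 2 tested macrophage markers, CD14 was lower (−0.17 ± 0.06, limma adjusted p = 0.0385) and CD68 did not pass (0.005 ± 0.058, limma adjusted p = 0.942). CSF1R and AIF1 were not above background on any array. In RNA from whole cultures, fewer cells of a type and less RNA per cell cannot be told apart.

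The probes are 60-base oligonucleotides, placed by the array's annotation on the horse build EquCab1. The 2 FTH1 probes read different stretches of the heavy chain transcript and gave different results. Their mean log2 signals also differed, with 14.87 at position 421 and 16.95 at position 627. The part of position or signal in these results was not tested. The sequences shown, in lower case and 5′ to 3′, are the heavy chain probe that did not pass the test and the light chain probe beside it.

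FTH1, transcript position 421 (chrUn:117613011-117613070, minus strand): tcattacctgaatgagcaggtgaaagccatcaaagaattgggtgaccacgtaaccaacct
FTL, transcript position 445 (chrUn:234059506-234059565, plus strand): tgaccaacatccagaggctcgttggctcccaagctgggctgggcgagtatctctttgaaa

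The other FTH1 probe starts 206 bases further along the transcript, at position 627 (chrUn:117612805-117612864, minus strand), and holds 35% G and C against 45% at position 421. No run longer than 7 bases was shared between any of these ferritin probes. Both FTH1 probes list, beside FTH1, a transcript that RefSeq assigns to a further locus, LOC100051036, so the signals of that locus and of FTH1 cannot be separated.

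The heavy chain gene FTH1 was higher with GO and H2O2 at its probe at position 627 and gave no call at position 421. At position 627 the normalised red intensities were 171131, 147555, 125917 and 128137 on replicates 1 to 4, and the green intensities were 130188, 118599, 96457 and 109194. Red was above green on every array, although the ranges of the channels overlapped. The log2 ratios were 0.39, 0.32, 0.38 and 0.23, with a mean of 0.33 ± 0.08 (SD, n = 4 arrays; limma adjusted p = 0.0153), a fold change of 1.26. Across all tested probes 17.1% passed the threshold of 0.05, with 9.49% higher and 7.59% lower. Only 2 of the 13 iron probes passed, both as higher, so the share was close to that of the table.

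At position 421 the red intensities were 39201, 31048, 26747 and 25926, and the green intensities 37019, 28817, 24666 and 29208. The ratios of 0.08, 0.11, 0.12 and −0.17 averaged 0.03 ± 0.14 (limma adjusted p = 0.707). Replicates 1 to 3 were slightly above 0 and replicate 4 below it, while this replicate also had the lowest ratio at position 627. The ratio at position 627 exceeded that at position 421 by 0.31, 0.21, 0.27 and 0.40, on average by 0.30 ± 0.08, in 4 of 4 arrays. An exact sign-flip test of this difference, two-sided, gave p = 0.125, the smallest that 4 arrays allow. Taken as the mean of its probes, FTH1 had a ratio of 0.18 (limma adjusted p = 0.0498, over the gene means).

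**Figure D1:**
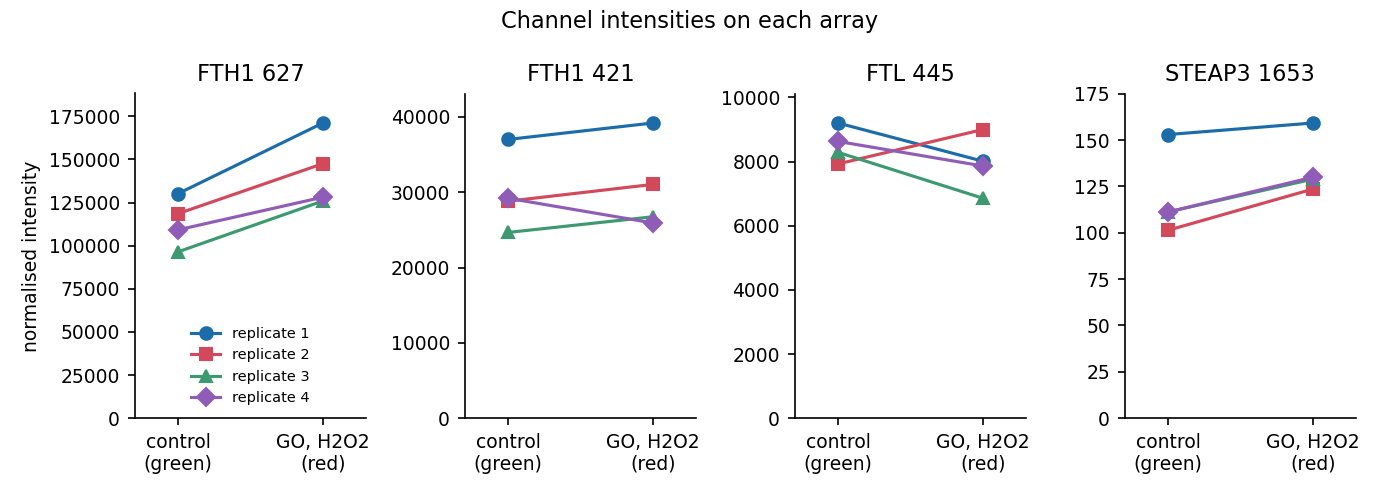
Normalised intensity of the control (green) and treated (red) channel for 4 probes, with 1 line per array and axes from 0. All 4 lines rise for FTH1 at position 627 and for STEAP3 at position 1653, while the lines of FTH1 at position 421 and of FTL run in different directions.

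The probe at position 627 lies at the bright end of the arrays, where ratios were above 0 for most probes. The 200 tested probes nearest to it in signal had a median log2 ratio of 0.17, and 91 of them (45.5%) passed as higher against 1 as lower. Of these 200, 14 had a higher ratio than FTH1. Around position 421 the 200 nearest probes had a median of −0.01, with 7 higher and 14 lower calls, and around FTL the median was −0.02. After a running median over signal was subtracted on each array, position 421 had 0.04 (limma adjusted p = 0.652). Position 627 then had 0.15 and no longer passed (limma adjusted p = 0.0752). The call was also lost with median centring (0.58, adjusted p = 0.451), with the methods' t-test (adjusted p = 0.0779) and without replicate 1, 3 or 4 (limma adjusted p = 0.0820, 0.0586 and 0.0734), where calls in the whole table fell from 4137 to 2, 38 and 0.

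**Figure D2:**
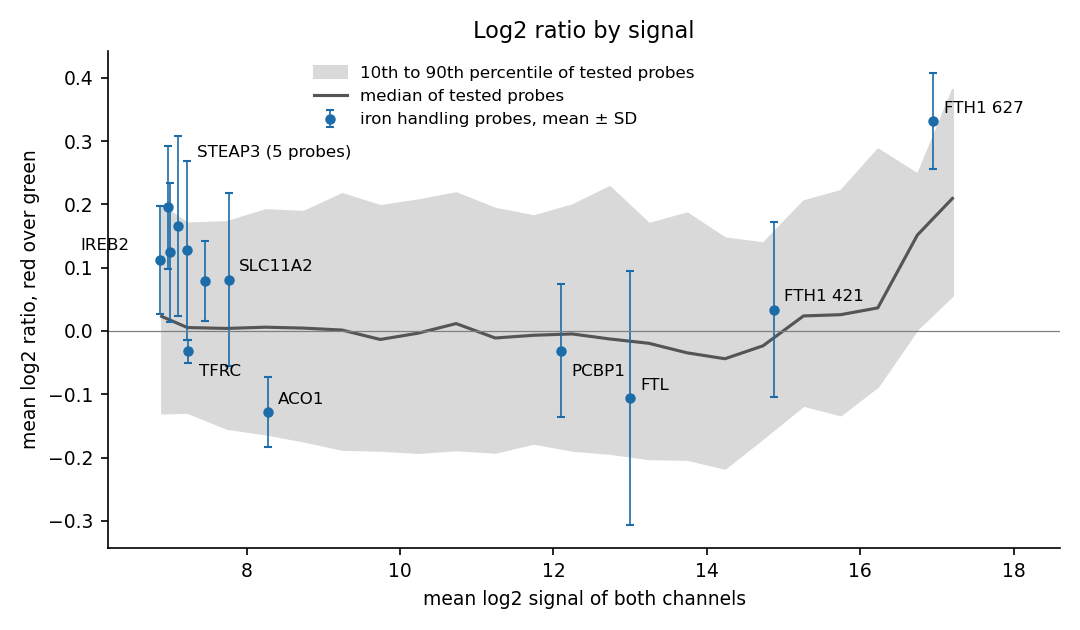
Mean log2 ratio (red over green) against mean log2 signal of both channels for the 13 tested iron probes (points, mean ± SD, n = 4 arrays), over the median (line) and the 10th to 90th percentile (band) of all 24229 tested probes in bins of signal. The median leaves 0 at the bright end, where FTH1 at position 627 lies above it, while FTH1 at position 421 and FTL lie where the median is close to 0.

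**Figure D3:**
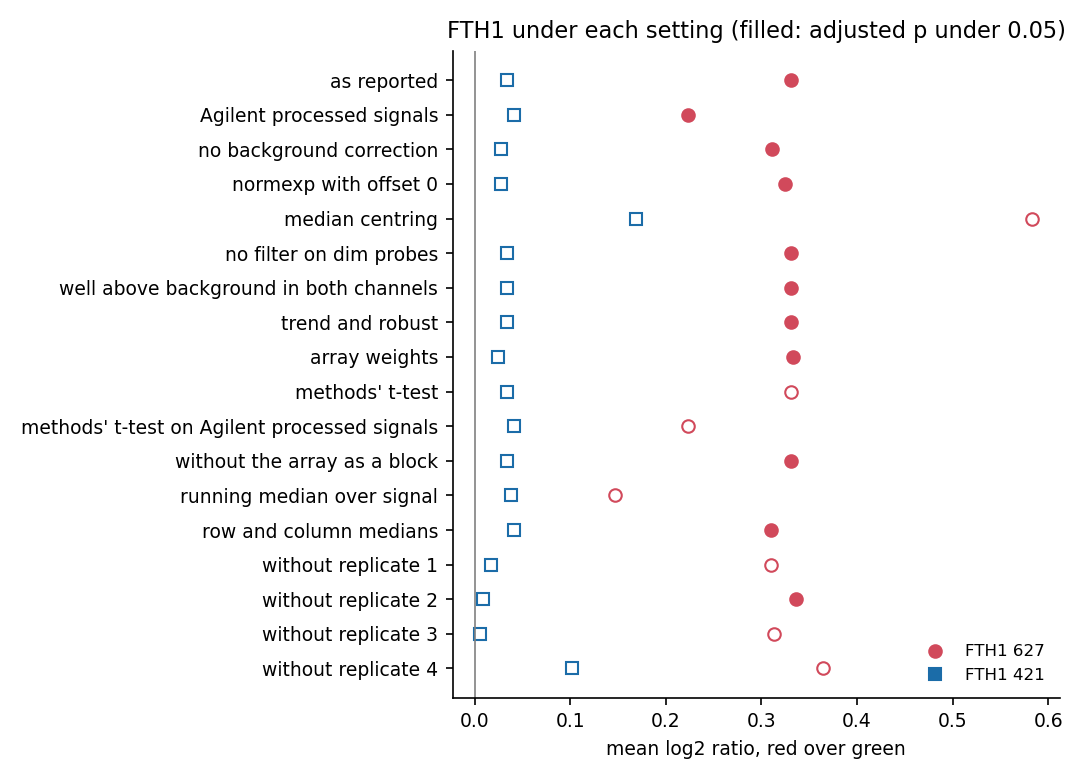
Mean log2 ratio of both FTH1 probes under each way of processing the arrays, with filled symbols where the adjusted p was under 0.05. Position 627 stays above position 421 in each row, between 0.15 and 0.58, and position 421 has no filled symbol.

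FTL, the light chain gene, did not pass. Its red intensities were 8010.1, 8997, 6856 and 7861, and its green intensities 9199.9, 7924, 8286 and 8626. Red was below green on replicates 1, 3 and 4 and above it on replicate 2. The ratios were −0.20, 0.18, −0.27 and −0.13, with a mean of −0.11 ± 0.20 (limma adjusted p = 0.352). Without replicate 2 the mean was −0.20 and passed as lower (limma adjusted p = 0.0445), a setting in which 7.51% of all tested probes passed as lower. A further probe, described on the array as ferritin light chain but without a gene symbol (chr1:72951126-72951185), had −0.07, 0.14, −0.26 and −0.05, with the same order of replicates as FTL, and a mean of −0.06 ± 0.16 (limma adjusted p = 0.540). A ferritin heavy chain-like gene on the X chromosome, LOC100054781, was not well above background on any array.

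Among the genes of iron uptake, STEAP3 was higher at 1 of its 5 probes. These probes (chr18:326100-326166, minus strand) start within 7 bases of each other and share 53 bases, so they are repeat readings of 1 target. At the probe at position 1653 the red intensities were 159, 124, 129 and 129.9 and the green intensities 153, 101, 111 and 111, close to the background. Red was above green on each array, least on replicate 1. The ratios of 0.06, 0.29, 0.21 and 0.22 averaged 0.20 ± 0.10 (limma adjusted p = 0.0414). The share of higher calls among the 200 probes nearest in signal was 7%, and their median ratio was 0.01.

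The other STEAP3 probes had the same direction without passing. At position 1654 red was 220.4, 162, 148 and 199.5 against 215, 145, 145 and 188 in green, with a mean ratio of 0.08 ± 0.06 (limma adjusted p = 0.220). At position 1658 red was 209, 153, 138 and 136 against 201, 124, 140.0 and 121 (0.13 ± 0.14, limma adjusted p = 0.172). In each of these the green intensity exceeded the red on at most 1 array. At position 1659 red was 171, 131, 122 and 118 against 167, 107, 115 and 112 (0.12 ± 0.11, limma adjusted p = 0.134). At position 1660 red was 179.7, 148, 137 and 124 against 170.4, 115, 122 and 119.6 (0.17 ± 0.14, limma adjusted p = 0.0989). Averaged over the 5 probes, STEAP3 had 0.05, 0.28, 0.10 and 0.12 on replicates 1 to 4, highest on replicate 2, and the mean of 0.14 did not pass (limma adjusted p = 0.0899, over the gene means). With Agilent's processed signals positions 1653 and 1659 passed with larger ratios (0.46 and 0.39), and both also passed without background correction (0.26 and 0.20, limma adjusted p = 0.0259 and 0.0290). Without any single replicate, position 1653 did not pass (limma adjusted p between 0.0823 and 0.140). Of all tested probes 16.1% passed without replicate 2, but only 2, 38 and 0 probes passed without replicate 1, 3 or 4.

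TFRC, the transferrin receptor, showed the smallest spread of the set. Its probe (chr19:29613618-29613677) was printed on 5 spots, whose mean red intensities were 198, 136, 136 and 137 against 198, 139.8, 139.8 and 141 in green. The ratios of −0.01, −0.04, −0.04 and −0.04 averaged −0.03 ± 0.02 (limma adjusted p = 0.557). Within an array the 5 spots had an SD of 0.0494 to 0.126, so the mean lay within the spread of repeat spots.

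SLC11A2, the divalent metal transporter that moves iron out of endosomes, had red intensities of 265, 234, 199 and 205 against 281, 201, 178 and 202 in green (chr6:68491943-68492002, minus strand). Replicate 1 was below 0 and the others above, with ratios of −0.08, 0.22, 0.16 and 0.02 and a mean of 0.08 ± 0.14 (limma adjusted p = 0.352). HFE, which binds the transferrin receptor and takes part in iron sensing, was not well above background in either channel on any array (chr20:23687535-23687594). Its red intensities were 109, 84.8, 96.0 and 78.7 and its green intensities 116, 87.9, 103 and 67.7, with ratios of −0.08, −0.05, −0.10 and 0.22, and no fold change is given. The iron exporter SLC40A1 was well above background on 1 of 4 arrays, replicate 1, in each channel (chr18:54610913-54610972, minus strand). There its intensities were 199 in red and 227 in green. On replicates 2 to 4 they were 89.3, 109.7 and 97.6 in red and 101, 105 and 100.1 in green, and the ratios on replicates 1 to 4 were −0.19, −0.18, 0.06 and −0.04.

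Neither of the iron regulatory proteins passed. ACO1, the cytosolic aconitase that becomes an RNA-binding regulator when it loses its iron-sulfur cluster, had red intensities of 355, 281, 261 and 295 against 381, 301, 302 and 316 in green (chr23:39508633-39508692). Red was below green on all 4 arrays, by about the same amount on replicates 1, 2 and 4. The ratios were −0.10, −0.10, −0.21 and −0.10, with a mean of −0.13 ± 0.05 (limma unadjusted p = 0.0174, adjusted p = 0.0728). It passed as lower when row and column medians were subtracted (−0.15, adjusted p = 0.0496).

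IREB2, the regulator that is degraded when iron is plentiful, had red intensities of 149.6, 113, 118 and 109 and green intensities of 149.9, 101, 103 and 102 (chr1:113345103-113345162). The green signal was well above background on 2 of 4 arrays only. The probe was therefore tested through its red channel, a route that favours ratios above 0. The ratios of −0.00, 0.15, 0.19 and 0.11 averaged 0.11 ± 0.08 (limma adjusted p = 0.132). PCBP1, a chaperone that hands iron to ferritin, had red intensities of 4832, 4276, 3679.8 and 4629 against 5504, 4226, 3616 and 4561 (chr15:29043315-29043374, minus strand). The channels were nearly equal on replicates 2 to 4, and replicate 1 was lower. The ratios of −0.19, 0.02, 0.03 and 0.02 averaged −0.03 ± 0.10 (limma adjusted p = 0.686), and without replicate 1 the mean was 0.02.

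**Figure D4:**
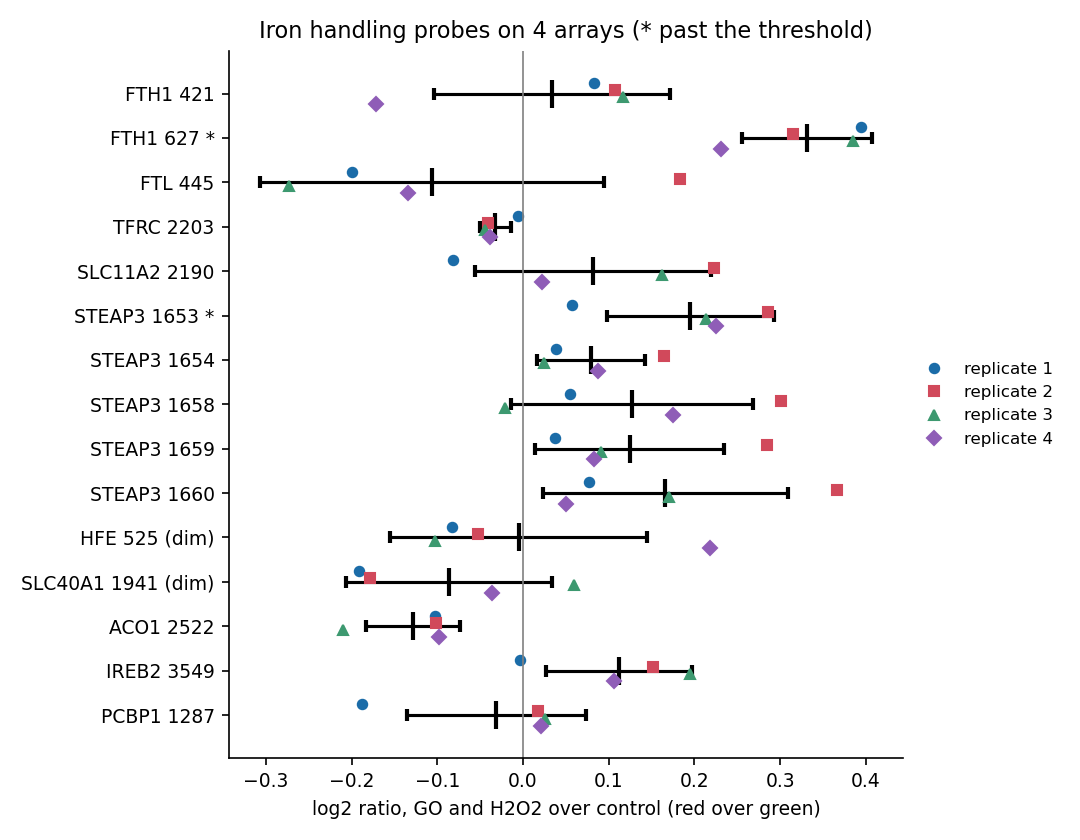
Log2 ratio (red over green) of all 15 iron probes, named by gene and transcript position, with 1 symbol per array and bars for mean ± SD (n = 4 arrays). FTH1 at position 627 stands at 0.33 ± 0.08 and STEAP3 at position 1653 at 0.20 ± 0.10, while FTL and FTH1 at position 421 have arrays on both sides of 0. HFE and SLC40A1 are marked as dim and were not tested.

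Across the 13 tested iron probes the median log2 ratio was 0.08, with a range of −0.13 to 0.33, and the median over all tested probes was 0.00. Above 0 were 9 of the 13, which include all 5 overlapping STEAP3 probes and IREB2, which was tested through its red channel only. The sign was the same on all 4 arrays for 7 of 13, STEAP3 at positions 1653, 1654, 1659 and 1660 among them, against 43.8% of all tested probes. None of the probes past the threshold reached the fold change of 1.3 given in the study's methods (0 of 13, against 1.42% of all probes), although a looser limit applied to the study's gene list. An unadjusted limma p under 0.05 was found for 6 of the 13, against 36.7% of all tested probes. These 6 include the overlapping STEAP3 probes at positions 1653, 1659 and 1660, and also the IREB2 probe that entered through red.

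The genes whose 4 array ratios were nearest to those of FTH1 at position 627, by root mean square difference over 4 arrays among 17455 named probes, were CAPNS1 (difference 0.0329; mean ratio 0.36 ± 0.07), a calpain subunit, RPS12 (0.0360; 0.33 ± 0.07), a ribosomal protein, and USP11 (0.0393; 0.33 ± 0.07), a deubiquitinase. None of them is an iron gene on the lists used here.

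Beyond the 10 genes, 84 further genes of iron and heme handling were analysed, of which 74 were found on the array and 56 tested, each at its brightest tested probe. The list had 3 higher and 6 lower calls (16.1%, against 17.1% of all gene names taken the same way, of which 9.93% were higher and 7.17% lower) and a median ratio of −0.02. Its highest ratio was that of HMOX1, the inducible heme oxygenase that releases iron from heme, with 0.50, 0.57, 0.85 and 0.16 on replicates 1 to 4. All 4 arrays were above 0, with replicate 3 highest and replicate 4 lowest, and the mean was 0.52 ± 0.28 (limma adjusted p = 0.0251), a fold change of 1.43. The mean log2 signal of HMOX1 was 7.62, near that of the brightest STEAP3 probe (7.45). With Agilent's processed signals HMOX1 had 0.91 (adjusted p = 0.0391). Biliverdin reductase B (BLVRB) was lower on every array, with −0.28, −0.43, −0.64 and −0.35. Its mean was −0.43 ± 0.16 (limma adjusted p = 0.0170). Biliverdin reductase A (BLVRA) had −0.18 ± 0.13 and did not pass (limma adjusted p = 0.0692).

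Genes of iron-sulfur cluster assembly gave lower calls for 1 of 18 tested members of the mitochondrial list and 2 of 6 of the cytosolic list. No member was called higher. Of all gene names at their brightest probe, 7.17% were lower and 9.93% higher. NFU1, which delivers clusters in mitochondria, had −0.23 ± 0.06 (limma adjusted p = 0.0223). In the cytosolic machinery CIAO1 had −0.24 ± 0.04 (limma adjusted p = 0.0192) and FAM96A −0.20 ± 0.05 (limma adjusted p = 0.0269), the latter at both of its probes. BOLA3, a further mitochondrial assembly factor, did not pass at its brightest probe (−0.07 ± 0.14, limma adjusted p = 0.408), but its 6 probes were all below 0 and 3 of them passed as lower. NFU1, CIAO1 and FAM96A were below 0 on all 4 arrays. The medians of both lists were close to 0 (−0.03 and 0.01), and 7 of the 18 mitochondrial and 3 of the 6 cytosolic members were above 0.

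In heme synthesis 9 genes were tested and 22.2% passed, against 17.1% of all gene names at their brightest probe. ALAS2, the erythroid form of the first enzyme, was higher (0.28 ± 0.12, limma adjusted p = 0.0242), and the mitochondrial porphyrinogen transporter TMEM14C was lower (−0.18 ± 0.10, limma adjusted p = 0.0467) but fell short of the threshold after subtraction of the running median (−0.15, limma adjusted p = 0.0724). Of 7 erythroid markers 3 were found on the array. HBA was above background and higher (0.20 ± 0.09, limma adjusted p = 0.0375), HBB was above background on 1 of 4 arrays and SLC4A1 on none. Their summed intensity was 562 to 797 in red and 471 to 719 in green, and its part in the ALAS2 ratio was not tested. ALAS1, the form used outside red cells, had 0.01 ± 0.06 (limma adjusted p = 0.883).

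Among 5 tested genes of iron transport and reduction, LCN2, a siderophore-binding protein, was higher (0.18 ± 0.06, limma adjusted p = 0.0363) and the metalloreductase relative STEAP1 was lower (−0.21 ± 0.11, limma adjusted p = 0.0411), but STEAP1 lost the call after subtraction of the running median (−0.19, limma adjusted p = 0.0512). From Agilent's processed signals, neither LCN2 nor STEAP1 passed (limma adjusted p = 0.0544 and 0.0626). The zinc and iron importer SLC39A14 had a ratio of 0.44 on replicate 2 against −0.10, 0.05 and −0.05 on the others (0.08 ± 0.24, limma adjusted p = 0.528). No gene passed at its brightest probe in the lists of ferritin turnover and iron chaperones (0 of 4 tested) and of systemic and sensor regulation (0 of 6). In the latter, SMAD4 passed at 1 of its 6 probes. For these small lists and that of transport, the share over all gene names at their brightest probe was 17.1%. In the ferritin turnover list NCOA4, which carries ferritin to the lysosome, had −0.03 ± 0.07 (limma adjusted p = 0.629). In the sensor list FBXL5, the iron sensor that marks IREB2 for degradation, had −0.10 ± 0.05 and was below 0 on all 4 arrays (limma adjusted p = 0.108).

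**Figure D5:**
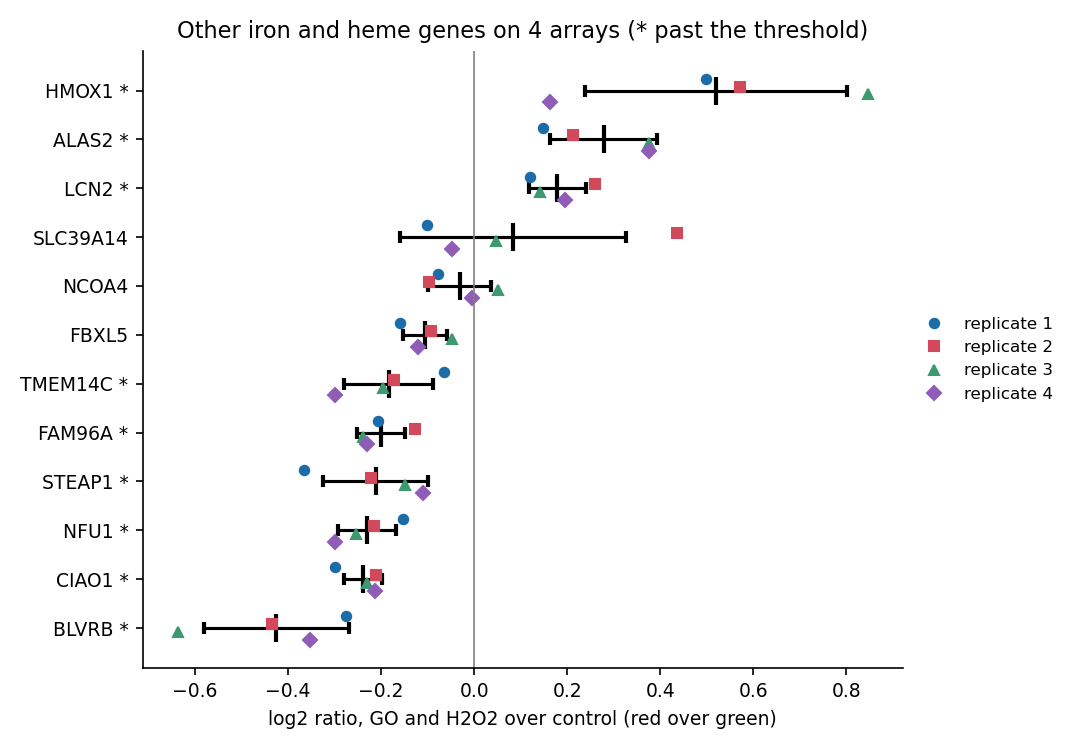
Log2 ratio (red over green) of 12 further iron and heme genes on each array, ordered by mean, with bars for mean ± SD (n = 4 arrays) and a star where the adjusted p was under 0.05. HMOX1 at 0.52 and BLVRB at −0.43 lie farthest from 0, with arrays spread more widely than those of CIAO1 and FAM96A.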

How the data were processed

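The deposited scanner files hold spot intensities of 4 Agilent 2-colour horse arrays, which the authors obtained, per the file headers, with Agilent Feature Extraction 10.10.1.1. Their log10 ratio of red over green rests on processed signals (background subtracted, spatially detrended, linear and lowess dye normalised), and the deposited series matrix holds the same log10 values (largest difference 0, column medians 0). Here mean intensities were corrected with normexp (offset 50) and normalised within arrays by loess, with control spots at weight 0. Spots marked as outliers were dropped (7 to 16 per array) and spots of a probe averaged. The mean log2 ratio was tested against 0 with limma version 3.58.1 (R version 4.3.3) on all 24229 kept probes, with Benjamini-Hochberg adjustment at 0.05, after tests on simulated data. The study's methods name Student's test, run here as an alternative (the methods' t-test), and a fold change of 1.3. Members, lists and alternatives were chosen with earlier results of these data known. Of the wider lists, NCOA4, HMOX1, FBXL5 and SLC39A14 are named whatever their values, besides up to 3 members per list with the smallest p past the threshold. Others, such as ALAS1 and the markers, were named after their values were seen. Symbols were those of the array annotation, with 2 listed genes found through RefSeq accessions and 21 of all listed genes not found, and 1 listed gene is not reported here. The number of arrays limits the precision.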

Additional observations from a re-analysis of the deposited data

Results flagged for a closer look

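On 4 arrays, 1 replicate stood apart from the other 3 for 4 of the 25 sets of ratios examined (the 13 tested iron probes and 12 named iron and heme genes), the gap to the nearest array taking up most of the whole range (Dixon's test). Chance gives this in about 1 in 20 sets. For FTH1 at position 421 the gap was 0.881 of the range, with replicate 4 at −0.17 below the others. For PCBP1 it was 0.961, with replicate 1 at −0.19. For ACO1 it was 0.957, with replicate 3 at −0.21 against −0.10 on each of the other arrays. For TFRC it was 0.842, with replicate 1 at −0.01 and the others at −0.04, a range smaller than the SD of its 5 spots within an array.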

How the results depend on the processing

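Of the 2 iron probes past the threshold, both higher, 0 passed under median centring and under the methods' t-test, on either set of signals. Of all probes, the methods' t-test passed 0.0206%, and 0.879% on Agilent's processed signals. With the running median over signal 1 passed (STEAP3 at position 1653), against 15.3% of all probes. Agilent's processed signals and no background correction each gave 3, all higher, with STEAP3 at position 1659 added. These settings passed 15.4% and 17.9% of all probes. Without the array as a block, both channels being separate samples, 1 passed, FTH1 at position 627 (0.33, limma adjusted p = 0.0345). Of all probes 2.45% passed in that setting. Leaving out 1 replicate gave 0 to 2 probes past the threshold, 0 to 1 as higher and 0 to 1 as lower. Of all probes 16.1% passed without replicate 2, and at most 0.157% without any other replicate. Row and column medians gave 1 higher and 1 lower probe, with 9.41% higher and 7.02% lower among all probes. With a fold change of 1.3, Agilent's processed signals gave 2 probes instead of 0, and 4.55% instead of 1.42% of all probes. The 9 calls in the wider iron lists became 0 with median centring, which left 12 calls in the whole table. TFRC turned to 0.0019 (limma adjusted p = 0.976) without background correction, and PCBP1 ranged from −0.0498 to 0.0213 when 1 replicate was left out, above 0 without replicate 1. Of the values of single iron probes under the alternatives, 198 kept their direction and side of the threshold, 16 lost and 4 gained a call, and 2 changed sign. The causes were not tested. Intensities near background limit HFE, SLC40A1, IREB2, TFRC and STEAP3. HMOX1 (mean log2 signal 7.62) and SLC11A2 (7.77) lay only a little above the brightest STEAP3 probe (7.45).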
